A study of Mus musculus with 20 samples.

Results

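The genes described here handle iron inside cells and have no known iron-responsive element (IRE), the RNA stem-loop that iron regulatory protein 1 (IRP1) binds. They are 10 genes: the ferric reductases Cybrd1 and Steap3, the ferritin receptor Ncoa4, the iron chaperones Pcbp1 and Pcbp2, the heme oxygenases Hmox1 and Hmox2, the mitochondrial iron importers Slc25a37 (mitoferrin 1) and Slc25a28 (mitoferrin 2), and the heme exporter Flvcr1. All probe sets annotated to one of them were taken, which gave 17 probe sets with 1 gene symbol out of 45037 tested. A further probe set, 1430374_at, is annotated to both Gm16867 and Slc25a37 and was attributed to neither.

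The study asked which mRNAs recombinant IRP1 holds in mouse tissues. Total RNA of C57BL6/J mice of both sexes was pooled within a tissue, and 50 µg of it went into each reaction with a rabbit polyclonal antibody against IRP1. The IRP1 reactions also held His-tagged IRP1 purified from E. coli, and the control reactions left that protein out. Each of 5 tissues had 2 IRP1 reactions and 2 controls, which made 20 Affymetrix mouse whole-genome arrays in 10 groups. The mice behind the duodenum, liver and spleen pools ate an iron-poor diet (under 10 mg iron per kg) for the 21 days that followed weaning. Those behind the bone marrow and brain pools had normal dietary iron and were 8 to 10 weeks old, so diet and age cannot be told apart from tissue. The labels give pools of 6 mice for bone marrow and brain and of 4 for one duodenum sample. The sources used here do not say whether both numbered reactions of a tissue came from the same pool, and p-values here rest only on how far these samples differ, which may be technical. A control level is the RNA that came down with the antibody alone, amplified from 120 ng, and not the level in total RNA.

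Iron enters these genes' pathway as ferric iron, which must be reduced before it can cross a membrane. Cybrd1 (duodenal cytochrome b) does this at the brush border of the gut and Steap3 in endosomes that carry transferrin. Inside the cell Pcbp1 and Pcbp2 deliver ferrous iron to its users, Ncoa4 takes ferritin to the lysosome for breakdown, the mitoferrins bring iron to the mitochondrial machinery for heme and iron-sulfur clusters, heme oxygenases free iron from heme, and Flvcr1 passes heme out. IRP1 binding to an IRE before the coding sequence blocks translation, as in ferritin mRNA, and binding to IREs behind it protects the mRNA, as in transferrin receptor mRNA.

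Values are log2 signals as deposited, on which 1 unit is a 2-fold difference. Array medians lay between 5.50 and 5.62 and standard deviations (SD) between 1.90 and 2.24, and arrays of a group correlated at 0.983 to 0.992. Of 9 hybridization control probe sets, the median was low on both number 2 arrays of spleen (-1.03 with IRP1 and -1.25 in the control, against the median array) and on control array 1 of bone marrow (-0.79). Markers of the labelled tissue were highest in it: the mean signal of 5 enterocyte markers was 13.2 to 13.6 in duodenum and at most 8.91 elsewhere, and that of 6 hepatocyte markers was 13.1 to 13.8 in liver. The 5 measured neuron and glia markers averaged 9.97 to 10.2 in brain, although Gfap and Mbp were not higher there than in other tissues. Neutrophil precursor markers averaged 13.0 to 13.5 in bone marrow, and B and T cell markers 9.75 to 10.3 in spleen. Pancreatic acinar markers averaged 12.6 to 14.1 in duodenum and 9.13 to 10.6 in spleen; liver, bone marrow and brain lay at 5.65 to 7.15. Both number 2 arrays of liver also stood apart by some enterocyte markers. The enzyme Alpi read 8.96 and 8.93 on them, against 5.18 and 5.79 on the number 1 arrays. The number 2 arrays of spleen likewise read albumin (Alb) at 11.2 and 11.7 against 8.12 and 8.34 on number 1.

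No enrichment or depletion by IRP1 was called for any of the 17 probe sets. In the mean of the 5 tissues 0 of 17 were higher, where 0.773% of all probe sets were, and 0 of 17 were lower, where 1.03% were (limma, Benjamini-Hochberg adjusted p under 0.05, two-sided). At an unadjusted p under 0.05 the members counted 0 higher and 2 lower, where 5.97% and 10.4% of all probe sets were. The median difference over the members was -0.07, against -0.01 over all probe sets. The upper 95% bounds of the 17 mean differences reached at most 1.25-fold, that of Cybrd1. Genes with an established IRE give the scale: transferrin receptor (Tfrc) was 4.58-fold higher with IRP1 (95% interval 3.82 to 5.49), the erythroid heme synthesis enzyme Alas2 4.65-fold (3.61 to 5.99), the iron exporter Slc40a1 2.56-fold (2.14 to 3.06), the hypoxia factor Epas1 2.54-fold (2.04 to 3.17) and the ferritin heavy chain Fth1 1.78-fold (1.53 to 2.08).

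**Figure D1:**
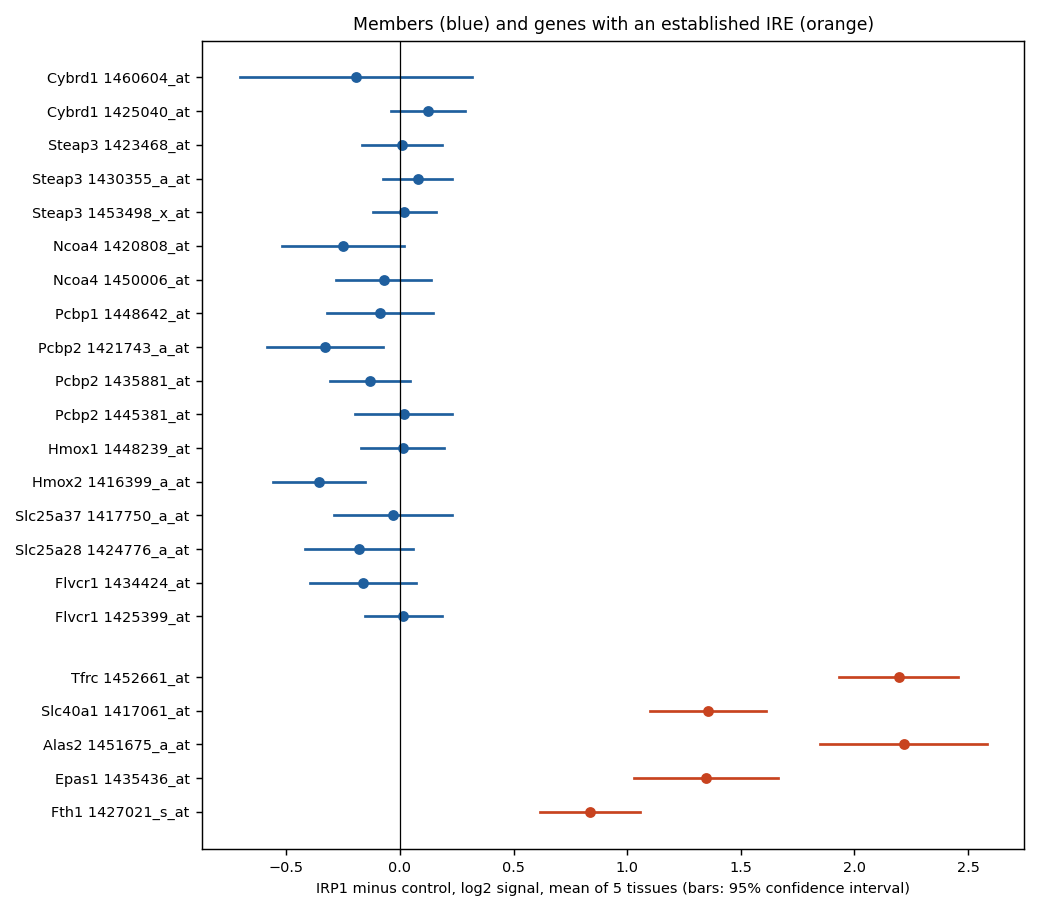
Difference between IRP1 and control reactions in log2 signal (x axis), averaged over the 5 tissues, for the 17 member probe sets (blue) and for 5 genes with an established IRE (orange). Points are model estimates and bars 95% confidence intervals; no member's interval reaches past 1.25-fold upward, while the orange intervals start at 1.53-fold or above.

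Within single tissues the members were not called either, and few of the 5 established IRE genes were: 1 in duodenum, 2 in liver, 1 in spleen, 3 in brain and all 5 in bone marrow. The members' upper 95% bounds were also wider there, reaching 1.76-fold in brain, 1.88-fold in spleen, 1.91-fold in duodenum, 2.07-fold in liver and 2.17-fold in bone marrow. In brain 0 of 17 were higher and 0 lower, against 0.0866% and 0.0377% of all probe sets, and in bone marrow 0 and 0, against 0.127% and 0.00444%. In spleen the counts were 0 and 0 against 0.0688% and 0.0333%, in liver 0 and 0 against 0.0910% and 0.0933%, and in duodenum 0 and 0 against 0.0799% and 0.0244%. Against backgrounds this low, counts of 0 among 17 probe sets are near the background and say little about the members. At an unadjusted p under 0.05 no member was higher in any tissue, against 2.64% of all probe sets in spleen, 4.82% in liver, 2.31% in brain, 2.02% in duodenum and 3.27% in bone marrow. At that threshold 5 members were lower in spleen (6.87% of all), 2 in liver (8.69%), 2 in brain (4.25%), 1 in duodenum (2.06%) and 0 in bone marrow (1.72%). The F-test for an IRP1 difference that varies between tissues called 0 of 17 members, against 0.0111% of all probe sets. Hmox1 (unadjusted p = 0.00408), Pcbp2 by 1421743_a_at (0.0433) and Ncoa4 by 1420808_at (0.0466) had an unadjusted p under 0.05 in it, as 4.83% of all probe sets did, with an adjusted p of 0.93 each.

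Levels differed between tissues for most of the genes. In the control reactions 12 of 17 probe sets differed between tissues, against 63.1% of all probe sets, so the share called was near the background. By the brightest probe set 8 of the 10 genes differed, against 72.9% of all genes. In 9 of the 12 probe sets the IRP1 arrays had the same top tissue as the controls, as did 79.5% of all probe sets called between tissues.

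**Figure D2:**
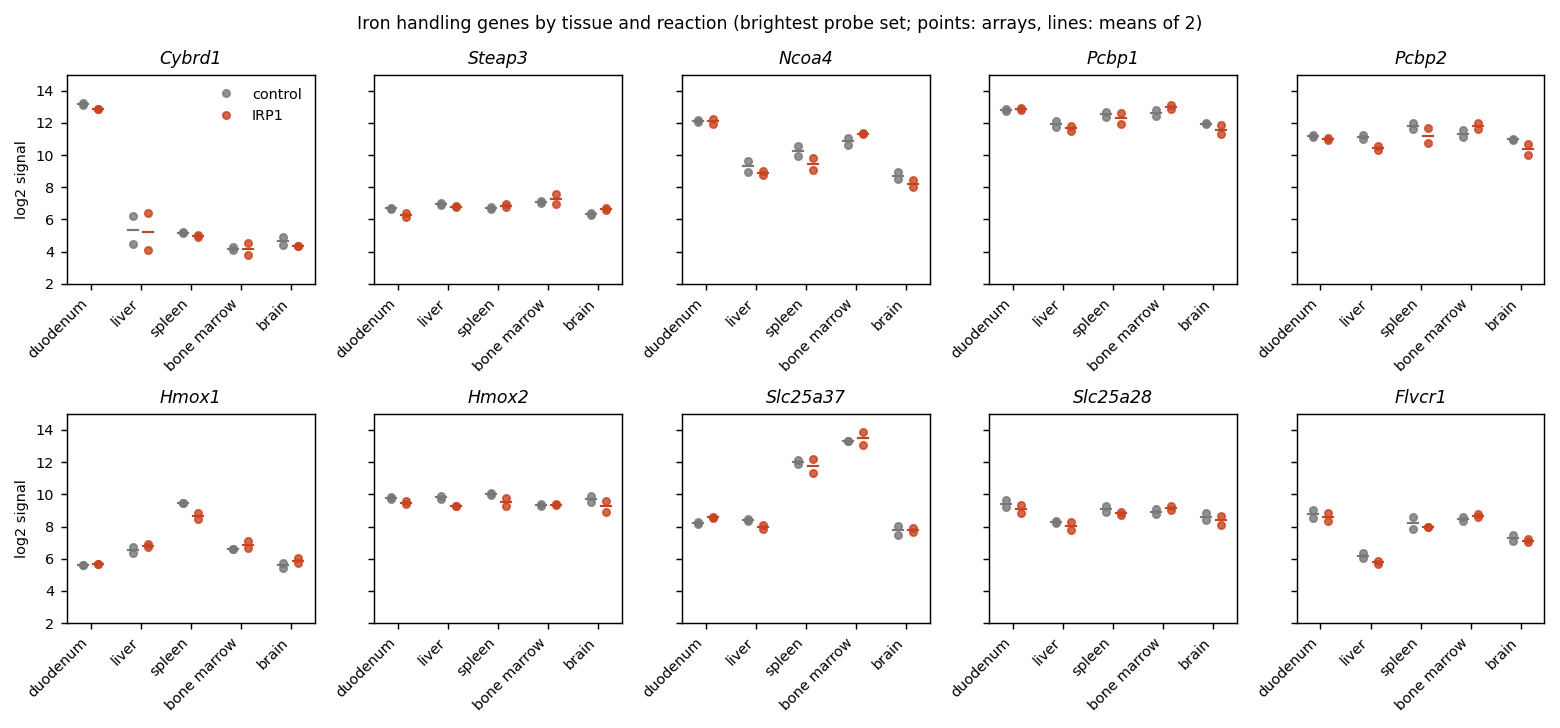
Log2 signal (y axis) of the 10 genes by their brightest probe set in 5 tissues, with control reactions in grey and IRP1 reactions in orange; points are arrays and lines means of 2. Cybrd1 is high in duodenum, Slc25a37 in bone marrow and spleen, Hmox1 in spleen and Ncoa4 in duodenum. The grey and orange means of a tissue differ most in spleen, by -0.82 for Ncoa4 and -0.81 for Hmox1, where the points do not overlap.

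Among the reductases, Cybrd1, which reduces dietary iron at the gut surface, had the widest range of any member. Its brighter probe set 1460604_at read 13.23 and 13.10 in the duodenum controls. The liver controls read 4.48 and 6.20, those of spleen 5.19 and 5.17, those of brain 4.93 and 4.42, and those of bone marrow 4.11 and 4.27. No other tissue came near the duodenum, which was 227-fold above liver (95% interval 103 to 502, adjusted p = 4.97e-09) and 505-fold above bone marrow (228 to 1114, adjusted p = 7.44e-10). No difference between neighbours was called among the other 4 tissues, in the order liver, spleen, brain, bone marrow (adjusted p = 0.842, 0.543 and 0.513). The low side of these folds is near the bottom of the scale, and with values under 5 set to 5 the duodenum stood 190.0-fold above liver and 288-fold above bone marrow. The second probe set, 1425040_at, read 10.53 and 10.31 in duodenum and 4.43 to 4.94 in the controls of the other tissues, all under 5; with those values set to 5 duodenum stood 42.8-fold above each of them (adjusted p = 1.48e-12 against liver). In bulk tissue, fewer cells that make an mRNA and less of it per cell cannot be told apart.

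The liver value of Cybrd1 depended on the array. Control array 2 (6.20) and IRP1 array 2 (6.37) were high, and control array 1 (4.48) and IRP1 array 1 (4.13) were low. The number 2 arrays were also those with high Alpi, and the brush border protein Vil1 read 7.07 and 6.98 on them against 4.56 and 5.10 on the number 1 arrays. The enterocyte marker Lct was higher on them too. The brightest enterocyte markers in liver, Fabp2 and Apoa4, went the other way in the controls. They read 11.34 and 12.38 on control array 1 and 10.68 and 11.66 on control array 2. With IRP1 they read 10.51 and 10.82 on array 1 and 10.67 and 11.51 on array 2. The part of these markers in the Cybrd1 signal of liver was not tested. Without both number 2 arrays of liver, duodenum was 8.68 log2 units above liver in place of 7.83 (adjusted p = 4.59e-11), and without control array 1 of liver it was 6.97 units above (adjusted p = 1.62e-07).

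No difference between the reactions was called for Cybrd1. In duodenum the IRP1 arrays read 12.87 and 12.88 by 1460604_at, below both controls, and 10.78 and 10.58 by 1425040_at, above both. The mean differences over tissues were -0.19 (SE 0.24, adjusted p = 0.76) and 0.12 (SE 0.08, adjusted p = 0.467), so the probe sets disagreed in sign and neither was called.

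Steap3, the endosomal reductase of red cell precursors, was measured by 3 probe sets and varied little. By 1423468_at the controls read 7.15 and 7.02 in bone marrow, 6.90 and 7.03 in liver, 6.65 and 6.77 in spleen, 6.73 and 6.65 in duodenum and 6.41 and 6.26 in brain. The calls were at the ends of this order, with bone marrow 1.69-fold above brain (1.28 to 2.22, adjusted p = 0.00351) and liver 1.55-fold above it (1.18 to 2.04, adjusted p = 0.0125), while none was made between neighbours. The liver call was lost without control array 2 of liver (adjusted p = 0.0819) or of brain (0.0771), and the test over all 5 tissues (adjusted p = 0.0169) was lost under 3 of 30 alternatives. The dim probe sets 1430355_a_at (3.59 to 4.27 over the 20 arrays) and 1453498_x_at (3.47 to 3.99) did not pass the test between tissues (adjusted p = 0.503 and 0.33). With IRP1, Steap3 by 1423468_at read 6.41 and 6.15 in duodenum, below both controls, as they did in liver (6.82 and 6.77), and 6.69 and 6.56 in brain, above both. The differences were -0.41 in duodenum (SE 0.19, unadjusted p = 0.0428, adjusted p = 1) and 0.29 in brain (SE 0.19, adjusted p = 0.823), and that in the mean was 0.01 (SE 0.08, adjusted p = 0.973).

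Ncoa4, the receptor that brings ferritin to the lysosome, was highest in duodenum by both of its probe sets. By 1420808_at the duodenum controls read 12.15 and 12.02, those of bone marrow 10.62 and 11.08, those of spleen 9.96 and 10.58, those of liver 9.64 and 8.94, and those of brain 8.92 and 8.53. Duodenum stood clear of bone marrow (2.35-fold, 1.55 to 3.57, adjusted p = 0.00267), and no difference was called between bone marrow and spleen (adjusted p = 0.18) or between liver and brain (0.124). Spleen was 1.97-fold above liver (1.30 to 2.99, adjusted p = 0.0116), a call lost without control array 2 of liver (0.63 log2 units, adjusted p = 0.177) or of spleen (0.67, adjusted p = 0.165), and with the array SD as a covariate (0.31 units in size, adjusted p = 0.264). From duodenum to brain the fall was 10.3-fold (6.77 to 15.6, adjusted p = 3.26e-08).

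The dimmer probe set 1450006_at gave the same order of tissues. Its controls read 9.84 and 9.23 in duodenum, 7.78 and 7.79 in bone marrow, 7.61 and 7.72 in spleen, 7.32 and 7.23 in liver and 6.25 and 6.42 in brain. Here brain also stood below liver, which was 1.92-fold above it (1.39 to 2.66, adjusted p = 0.00234). Acinar markers, which marked the duodenum arrays as strongly as enterocyte markers did, were high where Ncoa4 was highest. Their control mean was 6.05 in bone marrow, next in the order of Ncoa4, and 9.56 in spleen, which followed. The part of acinar cells in the Ncoa4 level was not tested.

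With IRP1 the sign of the Ncoa4 difference varied by tissue. In spleen the IRP1 arrays read 9.09 and 9.82 by 1420808_at, below both controls, a difference of -0.82 (SE 0.28, unadjusted p = 0.0109, adjusted p = 0.379). By 1450006_at they read 6.90 and 7.37, again below both (-0.53, SE 0.22, adjusted p = 0.471). In bone marrow the arrays read 11.28 and 11.35 by 1420808_at, above both controls (0.46, SE 0.28, adjusted p = 0.964). In brain they read 8.02 and 8.43 by 1420808_at and 6.21 and 6.09 by 1450006_at, below both controls by either. In liver they lay below both by 1450006_at (7.02 and 7.12) and overlapped by 1420808_at. The spleen difference of 1420808_at was -0.35 with the array SD as a covariate, and it was called under no alternative. The mean differences were -0.25 (SE 0.13, adjusted p = 0.35) and -0.07 (SE 0.10, adjusted p = 0.787).

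The chaperone Pcbp1, which hands iron to ferritin, was bright in every tissue. Its only probe set, 1448642_at, read 12.75 and 12.87 in the duodenum controls, 12.40 and 12.82 in bone marrow, 12.36 and 12.69 in spleen, 11.96 and 11.91 in brain and 12.13 and 11.73 in liver. The whole spread was 0.88 log2 units, no neighbours in the order were called apart, and duodenum and bone marrow passed the test against both brain and liver. Duodenum was 1.84-fold above liver (1.28 to 2.64, adjusted p = 0.0122). All 4 of these calls were lost under some alternative; that between duodenum and liver fell to 0.25 log2 units with quantile normalization (adjusted p = 0.197), to 0.68 without control array 2 of liver (adjusted p = 0.139), and was lost without control array 2 of duodenum (0.0802). That between duodenum and brain was lost without control array 2 of duodenum (0.0575), and those of bone marrow without its control array 2 (0.286 against liver and 0.249 against brain). In the IRP1 reactions Pcbp1 read 11.30 and 11.86 in brain, below both controls, and 12.85 and 13.12 in bone marrow, above both. Neither tissue was called (differences of -0.35 and 0.38, SE 0.25 each, adjusted p = 0.836 and 0.964), and the mean difference was -0.09 (SE 0.11, adjusted p = 0.759).

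Pcbp2, the second chaperone, was read by 3 probe sets that disagreed. The brightest, 1421743_a_at, read 11.64 and 11.97 in the spleen controls, 11.12 and 11.55 in bone marrow, 11.24 and 11.13 in duodenum, 11.24 and 11.02 in liver and 10.95 and 11.03 in brain, and did not pass the test between tissues (adjusted p = 0.0954), although spleen and brain were called apart (0.82 log2 units, adjusted p = 0.023, lost in 5 alternatives). The test over tissues passed under 6 of 30 alternatives, among them quantile normalization and the IRP1 arrays in place of the controls. The probe set 1435881_at read 8.39 and 8.83 in bone marrow and 7.54 and 7.87 in brain, with the other tissues at 7.96 to 8.24, and passed (adjusted p = 0.00636, lost without control array 2 of bone marrow at 0.0605). Bone marrow was 1.87-fold above brain by it (1.43 to 2.45, adjusted p = 0.000677).

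The dim probe set 1445381_at ran the other way and was highest in brain. Its controls read 7.77 and 8.05 in brain, 5.75 and 6.21 in bone marrow, 5.29 and 5.41 in duodenum, 5.13 and 5.36 in spleen and 4.55 and 5.02 in liver. Brain was 3.81-fold above bone marrow (2.74 to 5.31, adjusted p = 1.88e-06) and 8.73-fold above liver (6.27 to 12.2, adjusted p = 4.29e-09), or 7.47-fold with values under 5 set to 5. Bone marrow was 1.55-fold above duodenum (1.11 to 2.16, adjusted p = 0.0444), a call lost without either control array of duodenum (0.191 and 0.102), without control array 2 of bone marrow (0.318) and under 9 further settings. Which transcripts of Pcbp2 the 3 probe sets read was not examined.

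With IRP1, the brightest Pcbp2 probe set read 10.34 and 10.58 in liver, 10.02 and 10.72 in brain and 10.91 and 11.04 in duodenum, below both controls in each. It read 10.74 and 11.65 in spleen, which overlapped the controls, and 11.64 and 11.96 in bone marrow, above both. Differences were -0.67 in liver (SE 0.27, adjusted p = 0.292), -0.61 in spleen (adjusted p = 0.5) and -0.62 in brain (adjusted p = 0.743), and the bone marrow difference was 0.46 (adjusted p = 0.964). In the mean the probe set stood at -0.33 (SE 0.12, unadjusted p = 0.0147, adjusted p = 0.175), and 1435881_at and 1445381_at stood at -0.13 and 0.02 (adjusted p = 0.465 and 0.963).

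The heme oxygenases differed in how they were spread. Hmox1, the inducible enzyme that macrophages use to open heme from old red cells, read 9.49 and 9.48 in the spleen controls by 1448239_at. It read 6.59 and 6.63 in bone marrow, 6.74 and 6.38 in liver, 5.59 and 5.64 in duodenum and 5.76 and 5.44 in brain. Spleen stood 7.33-fold above bone marrow (5.53 to 9.71, adjusted p = 2.16e-08) and 14.8-fold above brain (11.2 to 19.6, adjusted p = 3.59e-11). Liver was 1.93-fold above duodenum (1.45 to 2.55, adjusted p = 0.00111), and no difference was called between bone marrow and liver (0.883) or between duodenum and brain (0.963). The mean of 8 macrophage markers ran from 9.19 to 9.95 in spleen, 8.92 to 9.52 in liver, 8.04 to 8.39 in bone marrow, 6.84 to 7.15 in duodenum and 6.48 to 6.73 in brain. Among the controls 7 of the 8 markers were lower in liver than in spleen, by 0.57 to 2.51 log2 units, while Vsig4 read 10.0 in liver and 4.55 in spleen. Hmox1 was 2.92 log2 units lower in liver than in spleen, and the part of macrophages in its level was not tested.

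**Figure D3:**
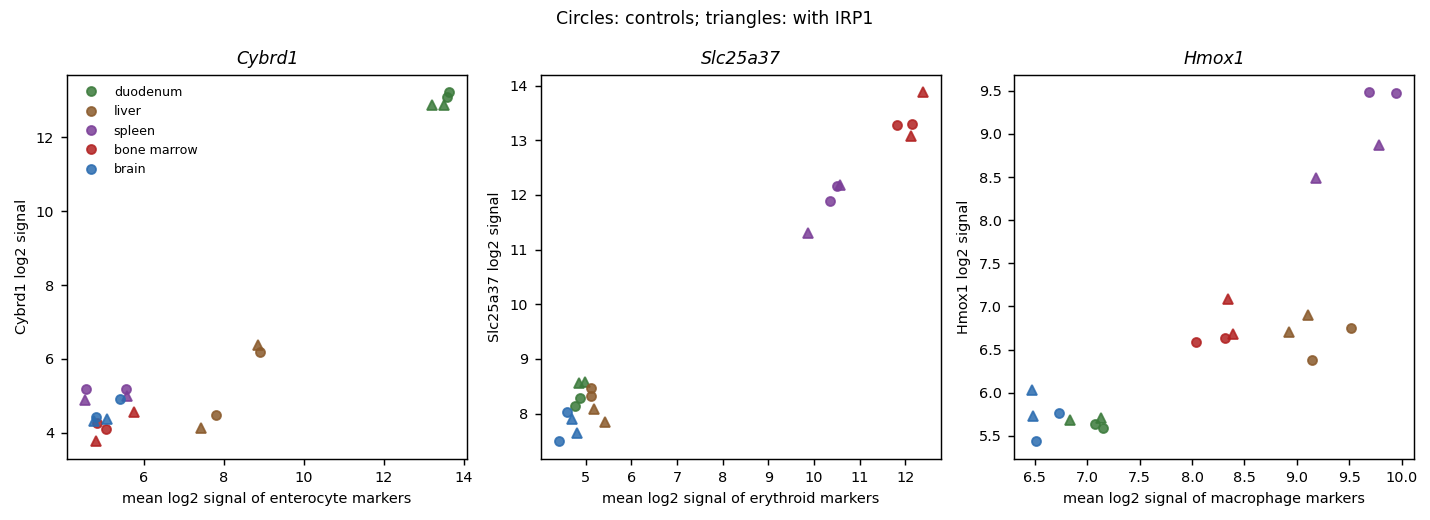
Log2 signal of Cybrd1, Slc25a37 and Hmox1 by the brightest probe set (y axes) against the mean log2 signal of enterocyte, erythroid and macrophage markers (x axes) on the 20 arrays, coloured by tissue, with circles for controls and triangles for IRP1. Cybrd1 and Slc25a37 are high where their markers are, and on the right the liver arrays have lower Hmox1 than those of spleen, at a macrophage mean of 8.92 to 9.52 that holds the high liver value of Vsig4.

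Spleen was also where Hmox1 differed most between reactions. The IRP1 arrays read 8.48 and 8.87, both below the controls, a difference of -0.81 (SE 0.19, unadjusted p = 0.000652), which did not pass after adjustment (0.189). The adjusted p ran from 0.145 upward over 30 alternatives, with a difference of -1.003 without both number 2 arrays of spleen and control array 1 of bone marrow, and of -0.66 with the array SD as a covariate. In the other 4 tissues the Hmox1 differences were above 0 and uncalled, at 0.28 in brain, 0.27 in bone marrow, 0.24 in liver and 0.08 in duodenum (SE 0.19 each, adjusted p = 0.835, 0.964, 0.626 and 1), with both IRP1 arrays above both controls in bone marrow and duodenum. The mean over tissues was 0.01 (SE 0.09, adjusted p = 0.967). On the IRP1 arrays spleen was still above bone marrow (adjusted p = 4.44e-06).

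Hmox2, the constitutive heme oxygenase, spanned a narrower range than Hmox1. By 1416399_a_at the controls read 9.97 and 10.07 in spleen, 9.93 and 9.73 in liver, 9.74 and 9.81 in duodenum, 9.92 and 9.50 in brain and 9.38 and 9.29 in bone marrow. The test between tissues missed the threshold (adjusted p = 0.0908), although spleen and bone marrow were called apart (0.68 log2 units, adjusted p = 0.0337, lost in 9 alternatives). The test over tissues passed under 4 of 30 alternatives, with quantile normalization, with the array SD as a covariate and without either IRP1 array of brain.

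Hmox2 had the lowest mean difference of any member. The IRP1 arrays read 9.29 and 9.29 in liver, 9.27 and 9.78 in spleen and 9.39 and 9.57 in duodenum, in each case below both controls. In brain they read 8.93 and 9.57, which overlapped the controls, and in bone marrow 9.32 and 9.40, which overlapped too. The mean difference was -0.36 (SE 0.09, 95% interval -0.56 to -0.16, unadjusted p = 0.00169) and missed the threshold after adjustment (0.0664). It was called without IRP1 array 2 of spleen (-0.41, adjusted p = 0.0389), without IRP1 array 2 of brain (-0.42, 0.0156) and without control array 2 of brain (-0.40, 0.0397), and in no other of 29 alternatives. Of the 3197 probe sets with a mean signal of 9 to 11, 8.95% had a lower mean difference than Hmox2, and their median was -0.12.

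The mitoferrins fell into one gene with wide range and one without. Slc25a37, which feeds iron to heme synthesis in red cell precursors, read 13.29 and 13.29 in the bone marrow controls and 11.88 and 12.16 in those of spleen by 1417750_a_at. The other controls read 8.32 and 8.46 in liver, 8.14 and 8.28 in duodenum and 7.50 and 8.03 in brain. Bone marrow was 2.41-fold above spleen (1.61 to 3.60, adjusted p = 0.00336) and spleen 12.4-fold above liver (8.30 to 18.5, adjusted p = 1.26e-08), while no neighbours among liver, duodenum and brain were called apart (0.699 and 0.219). The mean of 5 erythroid markers had the same order at the top, 11.8 to 12.4 in bone marrow and 9.86 to 10.6 in spleen, and lay between 4.41 and 5.42 elsewhere. Whether Slc25a37 follows the share of erythroid cells was not tested.

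For Slc25a37 no difference between the reactions was called. The IRP1 arrays read 13.08 and 13.88 in bone marrow and 11.30 and 12.18 in spleen, which overlapped the controls in both. They lay below both controls in liver (7.85 and 8.08) and above both in duodenum (8.58 and 8.55), differences of -0.43 and 0.35 (SE 0.27 each, adjusted p = 0.527 and 1). The mean was -0.03 (SE 0.12, adjusted p = 0.941). The probe set shared with Gm16867 read 4.53 and 5.24 in the bone marrow controls and 3.60 to 4.19 in the other controls, close to the bottom of the scale.

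Slc25a28, the mitoferrin of non-erythroid cells, read 9.64 and 9.20 in the duodenum controls by 1424776_a_at, 9.29 and 8.92 in spleen, 8.77 and 9.08 in bone marrow, 8.83 and 8.40 in brain and 8.24 and 8.32 in liver. It passed the test between tissues (adjusted p = 0.00633), with no call between neighbours and duodenum 2.21-fold above liver (1.53 to 3.19, adjusted p = 0.0021). Both calls were lost with the array SD as a covariate (0.116 and 0.0687). IRP1 and control arrays overlapped in every tissue, and the mean difference was -0.18 (SE 0.11, adjusted p = 0.46).

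Flvcr1, the heme exporter, was lowest in liver. By 1434424_at the controls read 8.50 and 9.04 in duodenum, 8.33 and 8.61 in bone marrow, 7.83 and 8.58 in spleen, 7.50 and 7.12 in brain and 6.33 and 6.05 in liver. No neighbours among the first 3 tissues were called apart (adjusted p = 0.422 and 0.509). Spleen was 1.86-fold above brain (1.29 to 2.67, adjusted p = 0.00776), a call lost without control array 2 of spleen (0.171) or of brain (0.0884), and brain was 2.18-fold above liver (1.52 to 3.13, adjusted p = 0.00142). From duodenum to liver the difference was 6.003-fold (4.18 to 8.62, adjusted p = 3.24e-07). The other probe set, 1425399_at, read 5.33 to 6.002 over all arrays and missed the test between tissues (adjusted p = 0.23). With IRP1, 1434424_at read 5.69 and 5.86 in liver, below both controls (-0.41, SE 0.25, adjusted p = 0.491), and overlapped them in the other tissues. Mean differences were -0.16 (SE 0.11, adjusted p = 0.509) and 0.02 (SE 0.08, adjusted p = 0.955).

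Across pairs of tissues the members' share of calls lay above the background for some pairs and below it for others. Between duodenum and liver 8 of 17 probe sets differed (27.5% of all), between duodenum and spleen 6 (32.3%), between duodenum and bone marrow 7 (29.6%) and between duodenum and brain 8 (39.6%). Between liver and spleen 5 members differed (38.4%), between liver and bone marrow 6 (32.5%), between liver and brain 5 (40.5%), between spleen and bone marrow 4 (18.4%), between spleen and brain 7 (38.2%) and between bone marrow and brain 9 (41.0%). Of these 65 called differences, 15 were lost in at least 1 alternative. Cybrd1, Hmox1 and Slc25a37 lost none, and Ncoa4 lost only that between spleen and liver by 1420808_at.

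The direction of the uncalled IRP1 differences, taken over both numbered reactions, went with the tissue. In bone marrow 15 of 17 members were above 0 (median 0.20), and in liver 13, in brain 12 and in spleen 11 were below it (medians -0.27, -0.18 and -0.25), with 9 of 17 below in duodenum (median -0.09). Of all probe sets 59.1% were above 0 in bone marrow, and 53.5% in liver, 53.9% in brain, 50.9% in spleen and 54.3% in duodenum were below it. All probe sets had medians of 0.05 in bone marrow and -0.02, -0.02, -0.01 and -0.02 in liver, brain, spleen and duodenum. The medians of all probe sets went with signal: those with a mean signal of 9 to 11, where 3 members lie, had medians of 0.18 in bone marrow and -0.33, -0.20, -0.25 and -0.02 in liver, brain, spleen and duodenum. Those of 5 to 7, where 6 members lie, had medians of 0.04 in bone marrow and 0.007 in liver, -0.001 in brain, 0.016 in spleen and -0.025 in duodenum. The array SDs moved with the band medians in liver and brain. In liver they were lower on the IRP1 arrays (1.90 and 1.95) than on the controls (2.11 and 1.99). In brain they were lower too (1.98 and 2.10 with IRP1, against 2.16 and 2.11). Those of spleen overlapped (2.01 and 2.18 with IRP1, against 2.16 and 2.24), as did those of duodenum (2.23 and 2.23, against 2.24 and 2.22). In bone marrow the SDs of the reactions overlapped (2.17 and 2.22 with IRP1, against 2.05 and 2.18). The lowest of them, 2.05, was that of control array 1, which had low hybridization controls. The part of the array SD in the members' differences was not tested beyond the fits that hold it as a covariate.

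**Figure D4:**
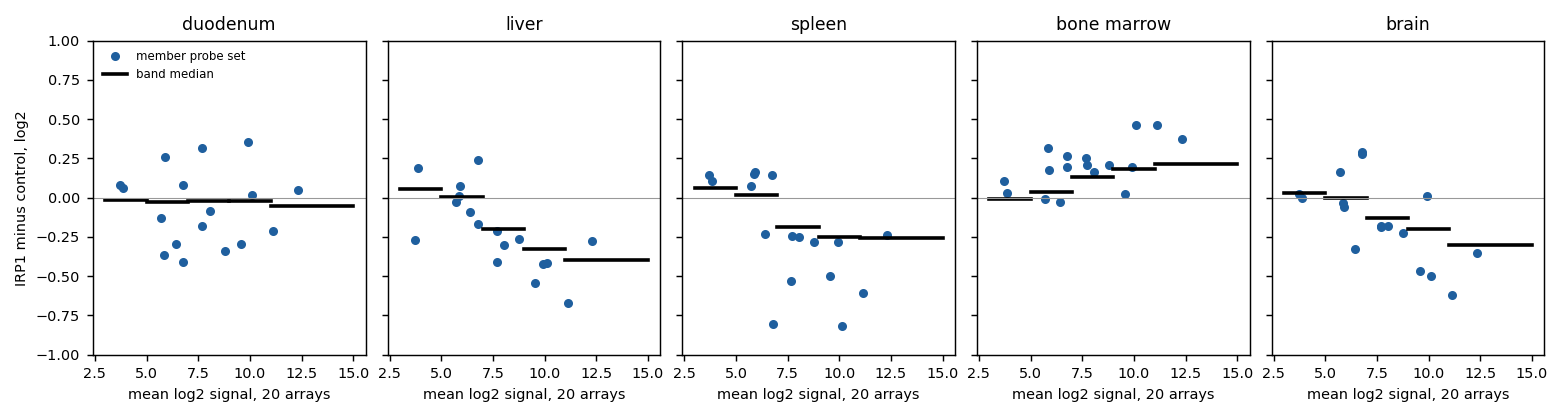
Difference between IRP1 and control in log2 signal (y axis) of the 17 member probe sets (blue points) against their mean log2 signal over the 20 arrays (x axis), in each tissue; black lines are the medians of all probe sets in 5 bands of signal. Most bright members lie below 0 in liver, spleen and brain and above 0 in bone marrow, as the band medians do; Slc25a37 in brain lies just above 0.

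Counts of members whose reactions did not overlap are read against the same counts over all probe sets. Both IRP1 arrays lay above both controls for 4 of 17 in duodenum (16.6% of all), 0 in liver (19.2%), 1 in spleen (17.6%), 5 in bone marrow (19.0%) and 2 in brain (16.7%). Both lay below for 5 in duodenum (21.6%), 8 in liver (26.0%), 6 in spleen (22.1%), 0 in bone marrow (11.8%) and 5 in brain (16.9%).

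For members whose controls spanned over 3 log2 units, the genes with the most similar signals over the 20 arrays were found among 18192 others by Pearson correlation. Arrays of one tissue share their tissue and are not independent, so these coefficients describe mainly the 5 tissue levels. Cybrd1 was closest to Tm4sf5 (0.995), B4galnt2 (0.994) and Ang4 (0.994), each of which read 12.9 to 13.0 in duodenum and at most 6.14 elsewhere in control means. Ncoa4 was closest to Clint1 (0.988), Inpp5b (0.982) and Aprt (0.980). Hmox1 was closest to Tmem26 (0.976), Bank1 (0.969) and Tlr7 (0.962), with Bank1 at a control mean of 12.7 in spleen and 8.78 in bone marrow. Slc25a37 was closest to Ncf1 (0.994), Rhd (0.993) and Cldn13 (0.993), with Rhd at 12.2 in bone marrow and 10.8 in spleen and at most 5.87 elsewhere.

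Among other genes of the same pathways 1 was called with IRP1. Of 47 listed genes 44 were measured, each by its brightest probe set, with 0 called in any single tissue. In the mean of the tissues 0 were higher with IRP1 and 1 lower, where 0.773% and 1.03% of all probe sets were. At an unadjusted p under 0.05 the counts were 1 higher and 5 lower, where 5.97% and 10.4% of all probe sets were, so the lower count was near the background. The gene called was Blvrb (biliverdin reductase B), at -0.39 (SE 0.09, adjusted p = 0.0407). Its IRP1 arrays in spleen read 8.96 and 9.30 against controls of 9.99 and 10.20, and they lay below both controls in the other tissues but bone marrow, where they read 10.75 and 10.67 against 10.48 and 10.66. The Blvrb call was lost under 17 of 29 alternatives, among them 14 of the 20 that leave out 1 array (adjusted p of 0.0186 to 0.118 over the 29).

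Of all genes 72.9% differed between tissues by the brightest probe set, which is the background for the list counts that follow. Among 8 ferric reductases 0 were called with IRP1 and 8 differed between tissues. The largest mean differences there were those of Cyb561d1 and Cyb561 (-0.14 each, adjusted p = 0.455 and 0.708). Of 6 genes for non-transferrin iron uptake and ferroxidases 0 were called and 5 differed between tissues, with the zinc and iron importer Slc39a14 at -0.21 (adjusted p = 0.262) and the ferroxidase ceruloplasmin (Cp) at -0.18 (0.455). Of 8 measured iron chaperones and ferritin turnover genes 0 were called and 6 differed between tissues, with mitochondrial ferritin (Ftmt) at 0.18 (0.363) and the autophagy gene Wipi2 at -0.18 (0.458). Blvrb was the 1 gene called among 8 measured for heme transport and breakdown, and all 8 differed between tissues. Of 5 measured genes for mitochondrial iron and heme export 0 were called and 4 differed between tissues, with the porphyrin transporter Abcb6 at -0.40 (adjusted p = 0.0848) and Slc25a39 at -0.18 (0.372). Of 9 genes for the control of Hmox1 and its co-targets 0 were called and 8 differed between tissues, with the glutathione synthesis gene Gclm at -0.24 (0.198) and the thioredoxin reductase Txnrd1 at -0.21 (0.641). The list medians ran from -0.10 to 0.01, against -0.01 over all probe sets.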

How the data were processed

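For each probe set and array the deposited table gives a log2 signal. Per the labels' protocols, the authors computed signals with RMA or with MAS5 in GCOS followed by quantile normalization, and which of these made the table is not given in the sources used here. These log2 values entered the fit unchanged, without a pseudocount or a filter. One model with 10 groups was fitted to 20 arrays over 45037 probe sets (64 Affymetrix controls left out) with limma 3.58.1 (lmFit, eBayes) in R 4.3.3, on 10 residual and 6.14 prior degrees of freedom. It gave the difference of IRP1 from control for every tissue and for their mean, the F-test of its differences between tissues, and the F-test and pairs of the control levels. P-values are two-sided, adjusted by Benjamini-Hochberg over all probe sets, and called under 0.05. The code was first tested on simulated arrays with known changes. The number of arrays limits the precision.

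Genes were named by a rule: every member by every probe set with 1 symbol, related genes with a call or otherwise up to 2 a list with the largest mean change, and the 3 genes most like each member whose controls span over 3 log2 units. Symbols are those of the platform annotation. The members and lists were chosen with earlier results of these data known. The sources used here give no genome build, so no positions are printed. Plots used matplotlib 3.10.9 under Python 3.11.15.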

Additional observations from a re-analysis of the deposited data

How the results depend on the processing

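The 17 member probe sets were refitted with quantile normalization, median centring, a floor at 5, a filter on a mean signal of 6, array weights, a replicate block, the array SD as a covariate, without the 3 arrays with low hybridization controls, without both number 2 arrays of liver (chosen after seeing the data) and without each array in turn. Of 102 member differences between reactions, 101 were called under no alternative; the exception was Hmox2 in the mean, so that the count of lower members ran from 0 to 1 when single arrays were left out. The sign of the mean difference held for 8 of 17 probe sets under all 29 alternatives. The level test called 12 of 17; 9 probe sets passed it under every alternative, 3 under none and 5 under some. The labels do not say that replicate numbers pair the arrays, and the data gave no common answer, so the main fit has no block: deviations of same-numbered arrays correlated at 0.27 in duodenum, -0.07 in liver, 0.53 in spleen, -0.04 in bone marrow and 0.12 in brain, and with the replicate block 0 of 17 members were called with IRP1 in the mean and 13 of 17 differed between tissues. Some markers went with the number in both reactions of liver and spleen. In spleen, Ncoa4 by 1420808_at differed by -0.87 within number 1 and -0.76 within number 2 (adjusted p = 0.255 with the block), while single arrays left out gave -1.18 to -0.45; Hmox1 differed by -1.003 and -0.61 (adjusted p = 0.164 with the block). With only the arrays of one tissue, and with the mean of a gene's probe sets, 0 members were called with IRP1. The filter on mean signal moved the median of all probe sets by over 0.1 in liver, from -0.02 to -0.18, and in spleen, from -0.01 to -0.16. Signals near the bottom of the scale, as of 2 Steap3 probe sets, understate differences.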
